A study of Mus musculus with 12 samples.

Results

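The hAT-Charlie DNA transposons of the mouse genome were followed in RNA from Kdm4a control and knockout embryos. The members were all repeat names annotated with the class DNA and the family hAT-Charlie, 81 of the 18538 names counted. The rule used only the annotation and no measured value. Total RNA came from C57BL/6 embryos at the 2-cell stage, 1.5 days after fertilization, with 6 libraries per group. In the group called WT (m+/p-), wild-type oocytes had been fertilized by Kdm4a knockout sperm, so only the maternal allele worked. In the group called KO (m-/p-), Kdm4a knockout oocytes had been fertilized by the same kind of sperm, so neither allele worked. The knockout sperm is shared by both groups, and the contrast is one of the maternal allele together with the oocyte that carried it. Kdm4a encodes a histone demethylase that acts on methylated lysines of histone H3. The labels place embryos in individual tubes without saying how many embryos a library holds or whether the females differed, so p-values measure the spread between these libraries. The counts held repeats and no genes, and Kdm4a itself was not analysed here.

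hAT elements take their name from the hobo, Activator and Tam3 transposons of fly, maize and snapdragon. They move by cut and paste: a transposase, encoded by the full-length element, binds the terminal inverted repeats and inserts the excised DNA elsewhere, leaving a short duplication of the target site. Charlie elements are the hAT branch with the most names in this annotation. Full-length copies are rare, and most of the family consists of short elements without a transposase gene that depended on a Charlie transposase to spread. None is known to be mobile in mouse today. Their fossil copies lie scattered through introns and between genes, so reads on them can come from RNA of the surrounding gene as well as from a transcript that starts in the element. The counts do not separate these sources.

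Depth was 7952526 to 18902360 counts per library. The stage markers of the 2-cell embryo were high in every library, with MERVL-int at 4.42% to 7.004% of counts in WT and 2.48% to 4.27% in KO. The MT2_Mm terminal repeat stood at 1.19% ± 0.185 in WT, against 0.782% ± 0.135 in KO (SD, 6 libraries each). The oocyte transcript MTA_Mm-int stood at 5.43% ± 0.384 in WT and 4.97% ± 0.607 in KO. Ribosomal RNA repeats held 5.74% ± 0.488 and 5.55% ± 0.775 of the counts. The LTR class, which holds MERVL and the MT elements, lay within 54.1% to 59.6% in WT and 44.2% to 51.7% in KO, with no overlap. WT replicate 2 had the highest LTR share and KO replicate 5 the fewest counts.

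As a whole, hAT-Charlie took a larger share of the repeat RNA in KO. Its share of all counts was 0.713%, 0.639%, 0.679%, 0.712%, 0.778% and 0.732% in WT replicates 1 to 6. In KO replicates 1 to 6 it was 1.04%, 0.808%, 0.886%, 0.878%, 0.939% and 1.04%. Every KO library lay above every WT library, and the means were 0.709% ± 0.0473 and 0.931% ± 0.0930 (SD, n = 6 each). Shares of one total move together, and the LTR share was lower in the same 6 KO libraries. Among counts outside the LTR class the groups overlapped, with hAT-Charlie at 1.56% to 1.70% in WT and 1.64% to 1.91% in KO (means 1.61% ± 0.0532 and 1.78% ± 0.109). Of DNA transposon counts it held 56.5% ± 0.912 (WT) and 58.7% ± 1.70 (KO). These sums are given as a description, without a test.

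**Figure D1:**
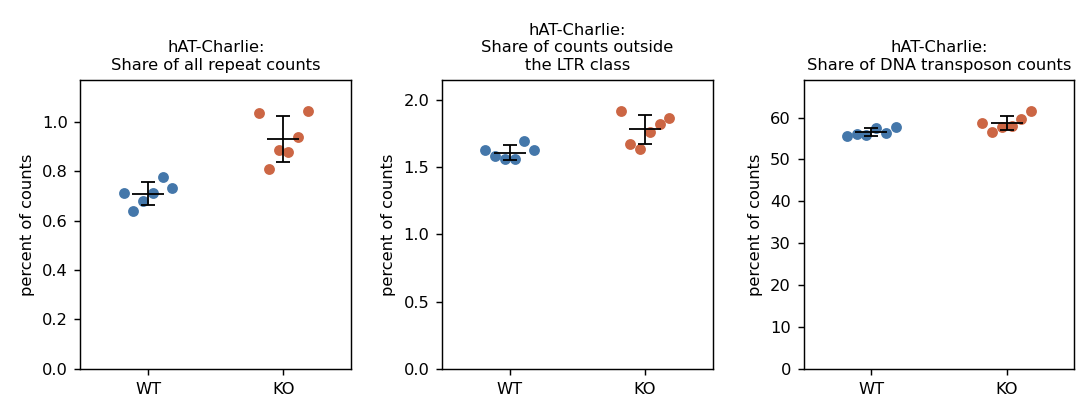
Share of counts held by the 81 hAT-Charlie names in each library, in percent, of all repeat counts, of counts outside the LTR class and of DNA transposon counts. Points are libraries, the wide tick is the mean and the bar the SD (6 WT, 6 KO). The groups do not overlap in the first panel (0.639% to 0.778% in WT, 0.808% to 1.04% in KO). They overlap in the other panels.

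A few names held most of the reads. The rodent elements URR1A, URR1B and RCHARR1 together took 39.6% of the family's counts over all libraries, and the 10 names with the most counts took 68.3%. URR1A and URR1B are short rodent elements without a transposase gene. They stood at 15.2% and 15.0% of the family's counts, RCHARR1 at 9.39% and MER5A, a short element shared by placental mammals, at 5.87%. These are shares of reads. The number and length of the genomic copies of each name were not used here, so they do not rank transcription per copy. At the other end, Charlie10b had 125 counts over all libraries and UCON81 had 9, with 10 of 12 libraries at 0. These 2 names did not pass the filter on low counts, and the other 79 members were tested.

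The test of each repeat asked which members differed between the genotypes, on counts, with a library size corrected for composition. Levels are given as normalised CPM, that is, counts divided by that library size. The correction factors were 0.767 to 0.977 in WT and 0.978 to 1.26 in KO, without overlap. Of the 79 tested members, 2 rose in KO, Charlie12_Rodent and MER113, none fell, and 77 did not pass (edgeR quasi-likelihood test, Benjamini-Hochberg over all 3312 tested repeats, threshold 0.05). Over all tested repeats 0.151% were called higher and 1.27% lower. At an unadjusted p under 0.05, edgeR had 12 members higher and 3 lower, 15.2% and 3.80% of the members, against 5.5% and 7.91% of all tested repeats. Outside simple repeats, 8.48% of 1227 tested repeats were higher and 14.6% lower by this measure. Among repeats that averaged 10 normalised CPM or more, it held for 14.0% and 5.26% of members, against 8.51% and 14.1% of 1445 repeats. DESeq2 called 3 members higher and 1 lower, where it called 1.78% and 5.1% of its repeats. Limma-voom with quality weights called 2 higher and 0 lower, where it called 0.242% and 1.9%.

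Charlie12_Rodent, the rodent form of Charlie12, was the more precisely measured of the 2. It stood at 78.5, 79.2, 89.0, 85.7, 92.5 and 87.7 normalised CPM in WT replicates 1 to 6. In KO replicates 1 to 6 it stood at 109.8, 136.5, 117.5, 105.8, 106.5 and 114.9. No library of either group fell within the range of the other, and KO replicate 2 was the highest. Means were 85.4 ± 5.56 in WT and 115.1 ± 11.4 in KO (SD over 6 libraries each), a log2 fold change of 0.43 ± 0.08 (SE; edgeR adjusted p = 0.0212), or 1.35-fold. As a share of the family's own counts, which needs no scaling between libraries, it lay between 0.951% and 1.16% in WT and between 1.22% and 1.65% in KO, again without overlap. The fold change kept its direction without each library in turn (0.38 to 0.46). The call was lost without WT replicate 1, 3 or 6 (adjusted p = 0.0584, 0.0556 and 0.0523) and without KO replicate 3 or 6 (0.0511 and 0.0627). It was also lost without both WT replicate 2 and KO replicate 5 (0.0561) and with no filter (0.0630).

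MER113, one of the short elements named for medium reiterated repeats, showed the larger difference. Its values were 21.2, 32.4, 30.3, 24.7, 26.6 and 20.3 normalised CPM in WT replicates 1 to 6. They were 44.3, 38.8, 43.1, 40.4, 32.7 and 37.2 in KO replicates 1 to 6. The groups did not overlap, but KO replicate 5 lay just above WT replicate 2. Means were 25.9 ± 4.82 and 39.4 ± 4.23 (SD, n = 6 each), a log2 fold change of 0.61 ± 0.14 (SE; edgeR adjusted p = 0.0413), or 1.52-fold. MER113 made up 0.328% ± 0.0562 of the family's counts in WT and 0.475% ± 0.0607 in KO, where 5 of 6 KO libraries lay above every WT library. The fold change was 0.55 to 0.68 without each library in turn. The call was lost without WT replicate 1, 3, 4, 5 or 6 (adjusted p = 0.0963, 0.0579, 0.0773, 0.0680 and 0.0902). It was lost too without KO replicate 1, 3, 4 or 6 (0.103, 0.0994, 0.0748 and 0.0769). Scaling by RLE (0.0564), removal of the 20 most abundant repeats (0.0544) and no filter (0.129) also ended it.

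**Figure D2:**
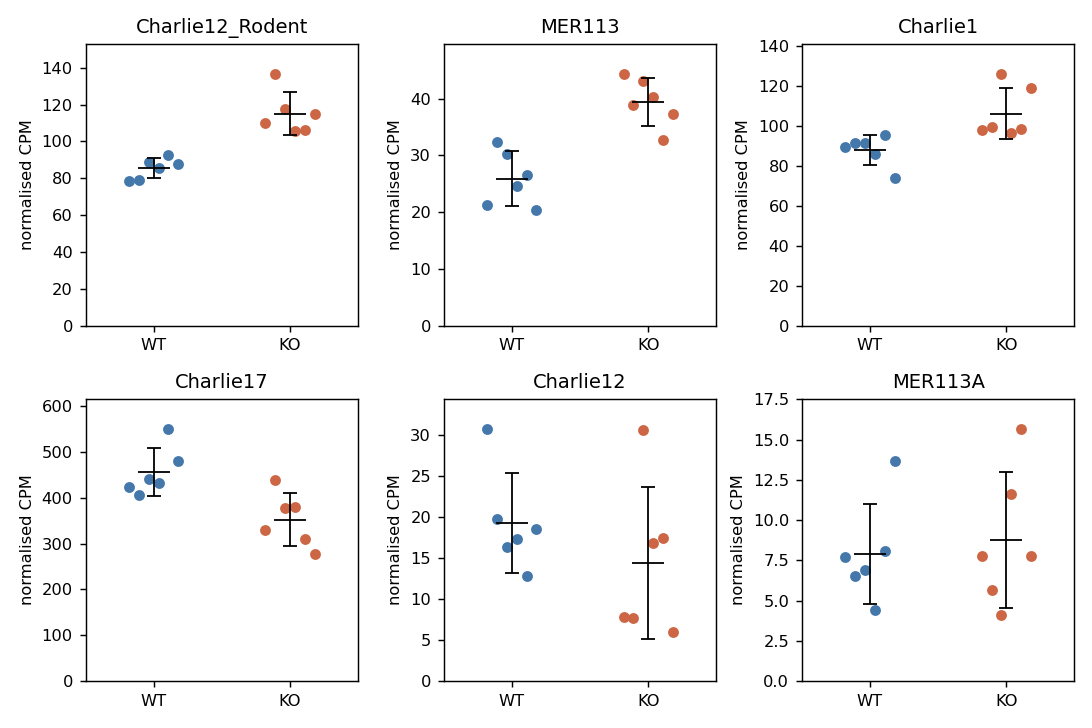
Normalised CPM of 6 hAT-Charlie members in each library (points), with mean (wide tick) and SD (bar), for 6 WT and 6 KO libraries; each vertical axis starts at 0 and has its own scale. Charlie12_Rodent, MER113 and Charlie1 do not overlap between the groups, 5 of 6 KO libraries of Charlie17 lie below all WT libraries, and Charlie12 and MER113A overlap widely.

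The closest relatives by name of these 2 members gave other values. Charlie12, without the rodent suffix, stood at 19.2 ± 6.10 (WT) and 14.4 ± 9.34 (KO) normalised CPM (SD, n = 6 each), a log2 fold change of -0.42 ± 0.36 (SE; edgeR adjusted p = 0.693). Its KO libraries split widely, with 6.03, 7.72 and 7.76 in replicates 6, 2 and 1, 16.9 and 17.4 in replicates 4 and 5, and 30.6 in replicate 3. MER113A, chosen after its values were seen, was near 8 in both groups, at 7.89 ± 3.11 in WT and 8.75 ± 4.23 in KO (log2 fold change 0.14, standard error 0.33, edgeR adjusted p = 0.923). The difference between a called member and its relative was not tested. Related names may share reads, since the counting rule for such reads was not stated, and their separate levels are uncertain.

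The other rodent names were abundant, and none of the 3 passed the test (log2 fold changes of 0.03 to 0.14). URR1A ran from 1106.9 to 1258.3 normalised CPM in WT (median 1192) and from 1217 to 1331 in KO (median 1275). All 6 KO libraries were above the WT median and 3 above every WT library, with a log2 fold change of 0.11 ± 0.06 (SE; edgeR adjusted p = 0.420). URR1B had a log2 fold change of 0.14 ± 0.06 (SE; edgeR adjusted p = 0.312). RCHARR1 overlapped fully, at 757 ± 50.9 in WT and 775 ± 44.1 in KO, with a log2 fold change of 0.03 ± 0.06 (SE; edgeR adjusted p = 0.903). Of the 4 rodent names, 1 was called higher, against 0.151% of all tested repeats, and the median log2 fold change was 0.13. At an unadjusted p under 0.05 in edgeR, 2 were higher and 0 lower, against 5.5% and 7.91% of all tested repeats.

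Charlie12_Rodent aside, which is grouped with the rodent names here, 44 names begin with Charlie. Of these, 43 were tested and none passed edgeR's test over all repeats, where 0.151% were called higher and 1.27% lower. At an unadjusted p under 0.05, edgeR had 6 higher and 2 lower (14.0% and 4.65%), against 5.5% and 7.91% of all tested repeats. DESeq2 called 1 higher and 1 lower, where it called 1.78% and 5.1% of its repeats. Limma-voom with quality weights called 0, where it called 0.242% higher and 1.9% lower. The log2 fold changes of the 43 names were positive for 32 and negative for 11, with a median of 0.17. Charlie1 was chosen after its values were seen because its groups did not overlap. It lay at 73.8 to 95.4 normalised CPM in WT and 96.2 to 125.8 in KO, with a log2 fold change of 0.27 ± 0.10 (SE; edgeR adjusted p = 0.185). Without overlap in either sense were 3 of the 79 members, all higher in KO, against 0.725% of all tested repeats higher and 1.39% lower. Charlie21a, also chosen after its values were seen, was the one of these 44 names that DESeq2 called higher. It stood at 7.43 ± 0.536 (WT) and 11.4 ± 2.48 (KO) normalised CPM (edgeR log2 fold change 0.62, standard error 0.18, adjusted p = 0.109).

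The most abundant Charlie name, Charlie17, had the opposite sign. It stood at 422, 405, 442, 433, 549 and 479.9 normalised CPM in WT replicates 1 to 6, and at 330.05, 439, 378, 379.6, 309 and 277 in KO replicates 1 to 6. All KO libraries except replicate 2 lay below every WT library. Means were 455 ± 52.4 and 352 ± 58.2 (SD, n = 6 each), a log2 fold change of -0.37 ± 0.11 (SE) that did not pass (edgeR adjusted p = 0.114). DESeq2 called it (log2 fold change -0.39), and without KO replicate 2 edgeR did too (adjusted p = 0.0433, against 0.0433 to 0.228 over the removal of each library). Under total-count scaling its log2 fold change was -0.08. The relatives Charlie17a and Charlie17b, picked with their values in view, gave log2 fold changes of 0.30 and 0.17, with edgeR adjusted p of 0.727 and 0.802.

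Further Charlie names at the low end were Charlie30a, Charlie30b and Charlie2b. Charlie30a stood at 24.5 ± 2.59 (WT) and 17.8 ± 5.78 (KO) normalised CPM, with 5 of 6 KO libraries below every WT library and a log2 fold change of -0.46 ± 0.20 (SE; edgeR adjusted p = 0.312). Charlie30b had one of -0.35 (edgeR adjusted p = 0.379). Charlie2b ranged from 279 to 500.2 in WT and from 293 to 421 in KO, with a log2 fold change of -0.18 ± 0.14 (SE; edgeR adjusted p = 0.634) that turned to 0.11 under total-count scaling. At the high end, Charlie15b, Charlie9 and Charlie25 gave log2 fold changes of 0.42, 0.43 and 0.45, with edgeR adjusted p of 0.324, 0.525 and 0.727, and Charlie1a, among the 10 most counted names, one of 0.21 (0.3202). Charlie25 is an example of a wide spread within groups, from 3.68 to 17.5 in WT and from 4.61 to 23.8 in KO.

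Of the 25 MER names, all tested, 1 was called higher, MER113, against 0.151% of all tested repeats. At an unadjusted p under 0.05 in edgeR, 4 were higher (16%) and 0 lower, against 5.5% and 7.91% of all tested repeats. A positive log2 fold change was seen in 20 (median 0.14). MER5A ran from 417 to 528 normalised CPM in WT and from 468 to 577 in KO, with a log2 fold change of 0.11 ± 0.08 (SE; edgeR adjusted p = 0.599). MER5B stood at 234 ± 13.1 in WT and 264 ± 17.3 in KO, with 5 of 6 KO libraries above every WT library and a log2 fold change of 0.17 ± 0.07 (SE; edgeR adjusted p = 0.247). MER20, known for copies that serve as enhancers in the uterus of placental mammals, had a log2 fold change of 0.07 ± 0.07 (SE; edgeR adjusted p = 0.771), and MER58A 0.14 (0.09, 0.551). The 8 remaining names gave no call among 7 tested in edgeR, and DESeq2 and limma-voom with quality weights also called 0. At an unadjusted p under 0.05 in edgeR, 0 were higher and 1 lower, against 5.5% and 7.91% of all tested repeats. The lower one was hAT-16_Crp, at 45.7 ± 9.03 in WT and 33.5 ± 8.18 in KO, with a log2 fold change of -0.45 ± 0.17 (SE; edgeR adjusted p = 0.247).

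**Figure D3:**
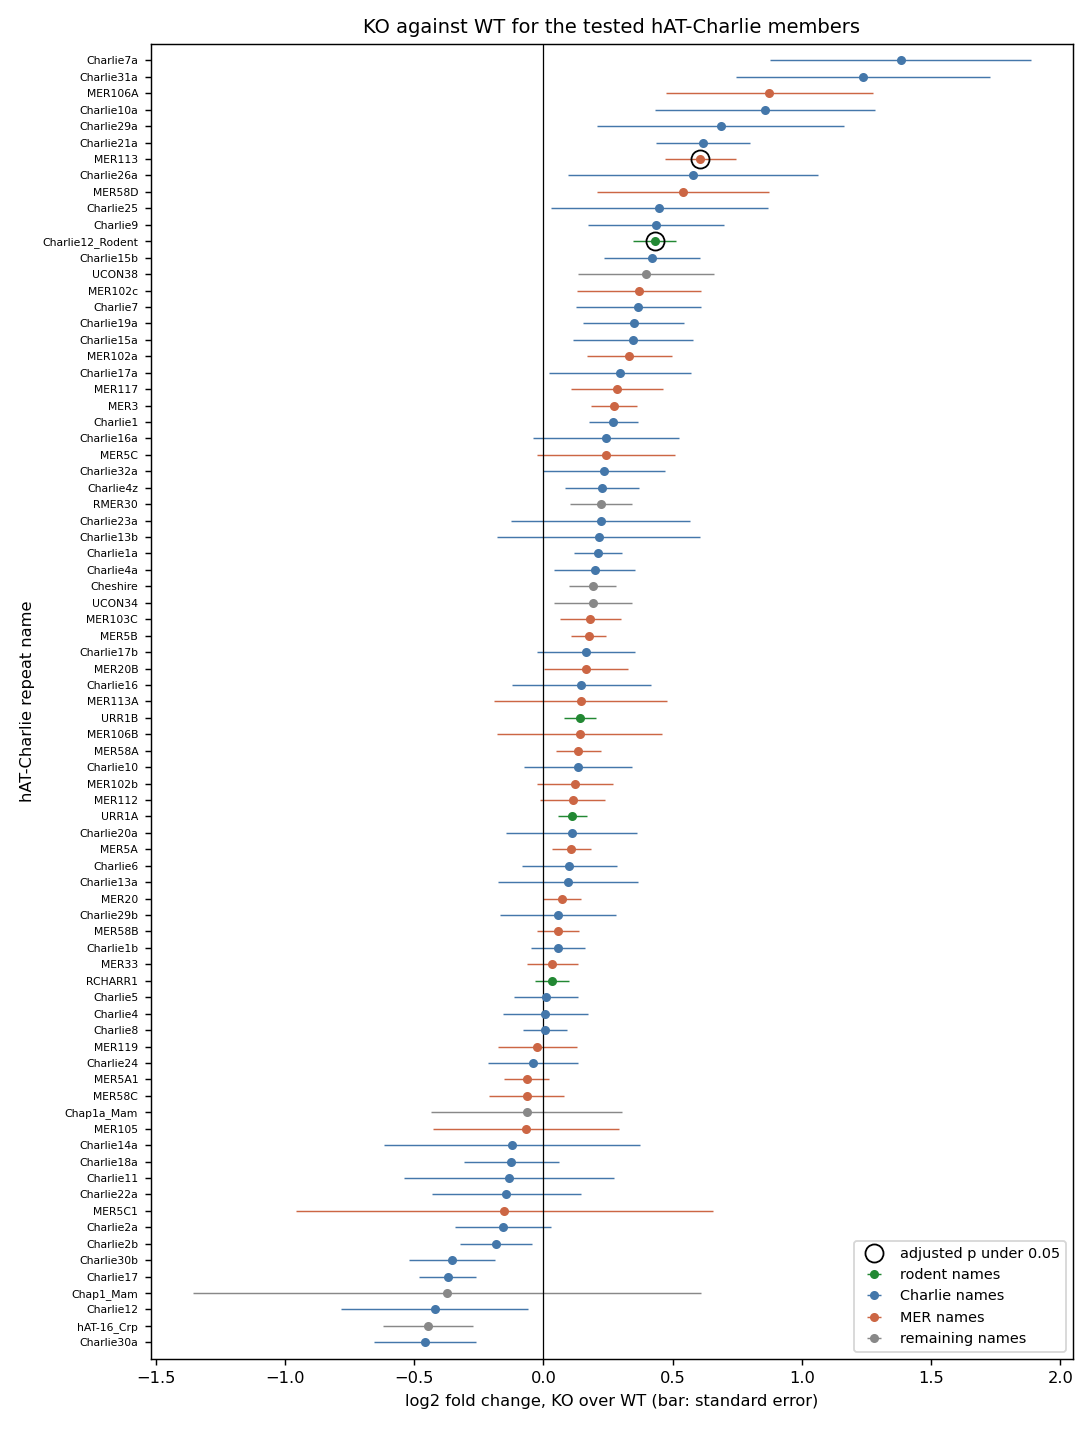
Log2 fold change of KO over WT for the 79 tested members, sorted, with standard error bars and colour by name group; a ring marks an edgeR adjusted p under 0.05. Of the 79, 60 lie right of 0 and 19 left of it, and the ringed members are MER113 at 0.61 and Charlie12_Rodent at 0.43.

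Taking all tested members, the log2 fold change was above 0 in 60 and below 0 in 19, and the median was 0.14. Over all 3312 tested repeats, 51.2% were positive and the median was 0.01. Other old repeats also had medians above 0. The median was 0.18 for 106 other DNA transposons (65.1% positive) and 0.12 for 51 Tigger names (54.9%). It was 0.16 for 11 L2 names (72.7%) and 0.10 for 5 MIR names (100%). A median above 0 was therefore not particular to hAT-Charlie. Higher in KO without overlap were 3 of 11 L2 and 1 of 5 MIR names. For other DNA transposons it was 1 of 106 and for Tigger 0 of 51, with 1 lower in each. For the members it was 3 of 79, against 0.725% of all tested repeats. At an unadjusted p under 0.05 in edgeR, 36.4% (L2), 20% (MIR), 9.43% (other DNA) and 7.84% (Tigger) were higher. Lower were 0%, 0%, 2.83% and 5.88%. Members stood at 15.2% and 3.80%, all tested repeats at 5.5% and 7.91%. Among repeats that averaged 10 normalised CPM or more, 44 of 57 members were positive with a median of 0.12, against a median of -0.01 over 1445 repeats. Scaling by total counts raised the median of the members to 0.46 and that of all repeats to 0.32. It called 20 members higher and 0 lower, where it called 10.8% of all repeats higher and 0.996% lower, so the number of members called turns on the scaling while the members' median stayed above that of all repeats. Under DESeq2 and with no filter this was not so, since the members' median was 0.13 and 0.16 beside 0.13 and 0.17 for all repeats, in tables that take in many rarely counted names.

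The spread between libraries fell with the level of a member. The 19 members with at least 100 normalised CPM had a median coefficient of variation of 8.85% in WT and 9.36% in KO, and their log2 fold changes lay between -0.37 and 0.43. For the 22 members under 10 normalised CPM these medians were 39.2% and 44.4%. The log2 fold changes of these 22 ran from -0.37 to 1.38. The highest belonged to Charlie7a, chosen after its values were seen, at 1.80 ± 1.35 in WT and 4.80 ± 2.15 in KO (standard error 0.50, edgeR adjusted p = 0.202). The largest fold changes of the family sat among its least counted names.

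Names were also set out by shared stem, such as MER102a, MER102b and MER102c. There were 20 such sets with 49 tested members, of which 13 were positive in all members, 3 negative in all and 4 mixed. Since 75.9% of all tested members were positive, agreement within a stem is frequent whatever the stem, and it was not tested. The 3 negative sets were Charlie2, Charlie30 and Chap1, and the mixed ones Charlie12, Charlie17, MER5 and MER58. Sets with the same sign in every member included Charlie1 (0.06 to 0.27), Charlie4 (0.01 to 0.23) and MER102 (0.12 to 0.37 on the log2 scale). These sets were drawn up after the values were seen, and related names can share reads, so members of a set are not independent.

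hAT-Charlie was then set against other old repeats within each library, by the log2 ratio of summed counts, which needs no scaling between libraries. The comparison asked whether the family moved with other DNA transposons and with MIR and L2, old SINE and LINE families that are likewise no longer mobile. The ratio to the Tigger family rose from 1.15 ± 0.06 in WT to 1.31 ± 0.15 in KO (SD, n = 6 each), a difference of 0.17 (exact permutation test, two-sided, p = 0.0260, adjusted p = 0.0346 over 4 ratios). It was above every WT library in 5 of 6 KO libraries, but this result rested on the most counted Tigger name. Tigger6 held 36.5% ± 2.21 of Tigger counts in WT and 29.1% ± 5.596 in KO, and its own log2 fold change was -0.40 ± 0.15 (SE; edgeR adjusted p = 0.233). Without Tigger6, a setting added after the data were seen, the difference was 0.01 (exact permutation, adjusted p = 0.801). It was also lost without WT replicate 1, 2, 3, 5 or 6 or KO replicate 1, 5 or 6 (differences of 0.12 to 0.18, exact permutation, adjusted p = 0.0563 to 0.0779).

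The ratio to the 124 DNA transposon names outside both families rose by a smaller amount, from 1.65 ± 0.06 to 1.74 ± 0.05 (n = 6, difference 0.09, exact permutation p = 0.00649, adjusted p = 0.0260), and all 6 KO libraries lay above the WT median. KO replicate 6 stood far above the others at 1.84. Without it the difference was 0.07 and the call was lost (exact permutation, adjusted p = 0.0693), as it was without both WT replicate 2 and KO replicate 5 (0.07, adjusted p = 0.0741).

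Against L2 the ratio fell, from 0.68 ± 0.03 to 0.62 ± 0.06 (n = 6, difference -0.06, exact permutation p = 0.0173, adjusted p = 0.0346), with all 6 KO libraries below the WT median. That call was lost without WT replicate 2, 3, 5 or 6 or KO replicate 6 (differences of -0.06 to -0.04, exact permutation, adjusted p = 0.0606 to 0.0779). Without both WT replicate 2 and KO replicate 5 it was lost as well (-0.05, adjusted p = 0.0741). Against MIR the ratio was 0.41 ± 0.03 in WT and 0.36 ± 0.07 in KO and did not pass (n = 6, difference -0.05, exact permutation p = 0.165, adjusted p = 0.165), although it did without KO replicate 2 (-0.07, adjusted p = 0.0144). As shares of all counts, MIR stood at 0.534% ± 0.0274 in WT and 0.732% ± 0.109 in KO and L2 at 0.442% ± 0.0347 and 0.606% ± 0.0816, so both were higher in KO, as hAT-Charlie was. The family's higher share was therefore not shown to be particular to it.

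**Figure D4:**
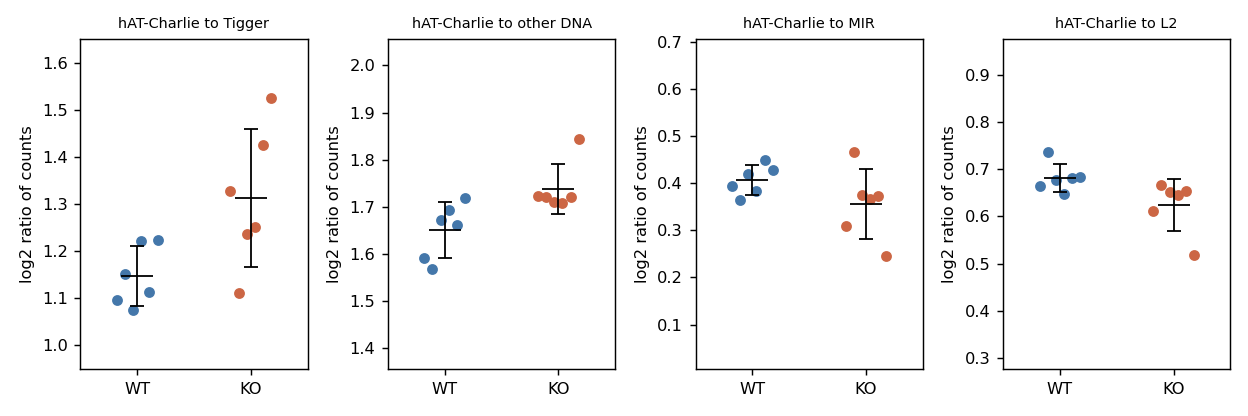
Within-library log2 ratio of summed hAT-Charlie counts to those of Tigger, other DNA transposons, MIR and L2; points are libraries, the wide tick the mean and the bar the SD (6 WT, 6 KO), and every axis spans the same range without starting at 0. The ratio to Tigger and to other DNA transposons lies higher in KO (differences 0.17 and 0.09), and that to L2 lower (-0.06).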

How the data were processed

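Each deposited table holds the estimated counts of 1 library, by repeat name with class and family; all values were whole. The submitters' processing notes name mm10, Trimmomatic 0.32 and edgeR without a role. For the aligner, repeat annotation, counting program and use of strand: not given in the sources used here. Groups and replicate numbers came from the titles.

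All repeats were tested together with edgeR 4.0.16 (R 4.3.3): filterByExpr, TMM, quasi-likelihood F test with genotype only, Benjamini-Hochberg over 3312 repeats. Normalised CPM uses library sizes times TMM factors, and standard errors came from the F statistic. Ratios of summed counts used exact permutation (scipy 1.17.1). DESeq2 1.42.0 and limma 3.58.1 were among the alternatives.

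The members, lists and ratios were chosen with earlier results of these data known. Named were calls, the 10 most counted members, the 5 highest and 5 lowest fold changes at a mean of at least 10 CPM, and the 2 markers. The plan took replicate numbers as unpaired: deviations of same-numbered libraries correlated at -0.07 to 0.15. No pair of libraries within a group agreed within sampling noise (chi-square per degree of freedom 25.0 to 143.8 over 30 pairs). Without molecular identifiers, reads may repeat molecules.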

Additional observations from a re-analysis of the deposited data

Results flagged for a closer look

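In 48 groups of 6 libraries examined (the named members, the family's share and the 4 ratios, in each genotype), 5 had a library far from the other 5, and chance alone gives about 1 in 20. RCHARR1 stood at 852.1 normalised CPM in WT replicate 2, where the next library was at 757. MER5A stood at 576.7 in KO replicate 5 (next 493) and Charlie15b at 47.97 in the same library (next 33.0). KO replicate 6 had the highest log2 ratio of hAT-Charlie to other DNA transposons, 1.845 (next 1.72), and the lowest to L2, 0.5173 (next 0.61).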

How the results depend on the processing

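The number of members called higher was 20 under total-count scaling, where 357 of all repeats were called higher. It was 1 under RLE scaling (3 of all repeats), without the 20 most abundant repeats (2) or without both WT replicate 2 and KO replicate 5 (4). With no filter or the replicate block it was 0, and each called 1 of all repeats higher. In both, 12 members were higher and 3 lower at an unadjusted p under 0.05 in edgeR. Without single libraries, 0 to 2 members and 1 to 9 of all repeats were called higher. DESeq2 called 1 member lower (126 of all repeats), and removal of single libraries gave 0 to 1 (18 to 84). Over all repeats, calls in either direction numbered 390 under total-count scaling, 78 when scaled outside the LTR class, 170 with DESeq2 and 71 with limma-voom. They numbered 18 with no filter, 23 without the pair of libraries and 19 to 93 without single libraries. The members' median was 0.46 under total-count scaling and 0.11 to 0.18 under the other 10 settings; Charlie2b turned to 0.11 under total-count scaling. Causes were not tested.

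The ratio differences without single libraries were 0.123 to 0.206 (Tigger), 0.0658 to 0.101 (other DNA), -0.0728 to -0.0287 (MIR) and -0.0657 to -0.0358 (L2). Without both WT replicate 2 and KO replicate 5 they were 0.144, 0.0739 and -0.0523 for Tigger, other DNA and L2. The Tigger difference was 0.00255 without the most abundant name of each side and 0.00816 without Tigger6 only, an alternative chosen after seeing the data. Without the most abundant name of each side, the other differences were 0.0590 (other DNA), -0.0503 (MIR) and -0.106 (L2). Their exact permutation adjusted p were 0.0476, 0.196 and 0.0346. The titles link same-numbered libraries by number only, and whether they shared a batch is not known. With the replicate block, as sign flips of 6 differences, the differences 0.166 (Tigger), 0.0871 (other DNA) and -0.0572 (L2) had exact permutation adjusted p of 0.125, 0.0625 and 0.0625, and with it edgeR gave adjusted p = 0.0674 for Charlie12_Rodent and 0.0728 for MER113. The median standard error of the log2 fold change was 0.36 for the 22 members under 10 CPM and 0.09 for the 19 with at least 100 CPM.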
